A study of Homo sapiens with 9 samples.

Results

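The serum amyloid A genes SAA1, SAA2 and SAA4 were examined in A2780 cells, an established human ovarian carcinoma line, after exposure to DIG-MSK, an analogue of the antibiotic mithramycin A that binds C+G-rich DNA. The 3 groups were untreated cells, cells exposed to DIG-MSK at 8 nM and cells exposed to it at 80 nM, both over 24 h, each with 3 arrays from independent cultures, 9 arrays in all, and each array took the Cy3-labeled RNA of a single culture. The genes were chosen by their large difference between the 8 nM and untreated arrays of this same data set, so every value that uses the 8 nM arrays describes them and carries no test. Members were all gene probes whose RefSeq transcript belongs to SAA1, SAA2 or SAA4 under current symbols, which gave 3 genes of the 35010 gene names on the array and 4 probes. Only 2 of those 4 probes, one each for SAA1 and SAA2, passed the filter on dim probes, which asked for a signal well above background in a whole group of 3 arrays, as 21832 genes did.

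Serum amyloid A proteins are small apolipoproteins carried by high-density lipoprotein. SAA1 and SAA2 encode the acute-phase forms, which the liver and some other epithelia make in inflammation when IL-6, IL-1 and TNF act through STAT3, C/EBP factors and NF-kB, and fragments of SAA1 are the main material of AA amyloid deposits. SAA4 encodes the form made constitutively. SAA3P is a pseudogene of the same cluster on chromosome 11, and the coding regions of SAA1 and SAA2 are nearly identical.

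The upstream sequence of SAA4 is shown because it is the only member with a promoter in the RefSeq table used here, and because DIG-MSK prefers C+G-rich DNA. SAA1 and SAA2 had no promoter there, so this sequence does not describe theirs, and SAA4 itself was below background on every array. It covers the 250 bases before the transcription start, on the minus strand of chr11:18236803-18237052 (GRCh38.p14), and is written from 5′ to 3′.

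SAA4 upstream sequence: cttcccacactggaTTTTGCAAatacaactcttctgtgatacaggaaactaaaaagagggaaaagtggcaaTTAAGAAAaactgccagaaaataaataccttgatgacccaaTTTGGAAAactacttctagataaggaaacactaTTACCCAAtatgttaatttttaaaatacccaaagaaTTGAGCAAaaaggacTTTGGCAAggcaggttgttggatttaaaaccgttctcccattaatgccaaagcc

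Capitals mark the 6 matches, on either strand, to the C/EBP-like motif TTNNGNAA, a motif found in 33.2% of the 35116 promoters of the table, each read over the same length. No match to the NF-kB consensus, the STAT-like motif TTCNNNGAA or the GC box GGGCGG was present in this window, and these motifs were held by 9.96%, 6.57% and 42.6% of all promoters. Its G+C content was 35.6%, against a median of 58.0% over all promoters, and 93.3% of them were richer in G+C. A match of letters is a description of the sequence and not a binding site.

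SAA1, read by its probe for NM_000331, was above background on all 9 arrays. Its processed signals were 119.4, 214.6 and 207.5 in untreated cells, 1025, 1049 and 1479 at 8 nM, and 619.1, 570.8 and 596.6 at 80 nM. All treated arrays lay above all untreated arrays, and the arrays of the 8 nM group lay above those of the 80 nM group. To compare arrays, levels were expressed as log2 of the processed signal minus log2 of the array's 75th percentile. On that scale SAA1 was −2.48 ± 0.27 (SD, n = 3) without treatment, 0.17 ± 0.28 at 8 nM and −0.65 ± 0.03 at 80 nM.

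The SAA1 level at 8 nM was 2.66 ± 0.17 log2 units (SE) above the untreated level, or 6.30-fold higher. That difference was rank 7 from the top among the 21832 genes. Same-numbered cultures differed by 2.64, 2.69 and 2.64 log2 units, a narrower range than the levels within either group. RNA came from whole cultures, so more transcript per cell and more cells carrying the transcript cannot be told apart.

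SAA2 was read by the probe for NM_030754, which was also above background on all 9 arrays. Its processed signals were 21.4, 39.4 and 31.1 in untreated cells, 261.5, 319.2 and 425.6 at 8 nM, and 84.0, 87.2 and 85.1 at 80 nM. Here too the 3 groups did not overlap, with 80 nM between the others. The untreated signals were close to the lower limit of measurement, since the lowest signal well above background on an array lay between 13.3 and 18.5. Relative to the 75th percentile, the SAA2 level was −5.05 ± 0.25 (SD, n = 3) without treatment, −1.66 ± 0.41 at 8 nM and −3.45 ± 0.11 at 80 nM.

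At 8 nM the SAA2 level was 3.39 ± 0.21 log2 units (SE) above untreated, or 10.5-fold higher, and only 1 gene showed a larger difference. Same-numbered cultures differed by 3.18, 3.41 and 3.58 log2 units. In both genes replicate 1 was the lowest array of the untreated group and of the 8 nM group. The size of the SAA2 difference depended on how background was handled, and it was 2.04 log2 units with normexp background correction and 2.45 in the log2 values the authors deposited. For SAA1 the same settings gave 2.29 and 2.45. As context for the 8 nM comparison that chose these genes, 7.09% of all genes were called there, meaning an unadjusted p under 0.05 together with a level 1.5-fold or more above, or 0.67-fold or less of, the untreated one. Calls of a higher level made up 4.25% of all genes and calls of a lower level 2.84%, or 928 and 620 genes. That split was 1223 and 318 genes with spike-in scaling, and 1022 and 1118 when 8 nM replicate 1 was left out.

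**Figure D1:**
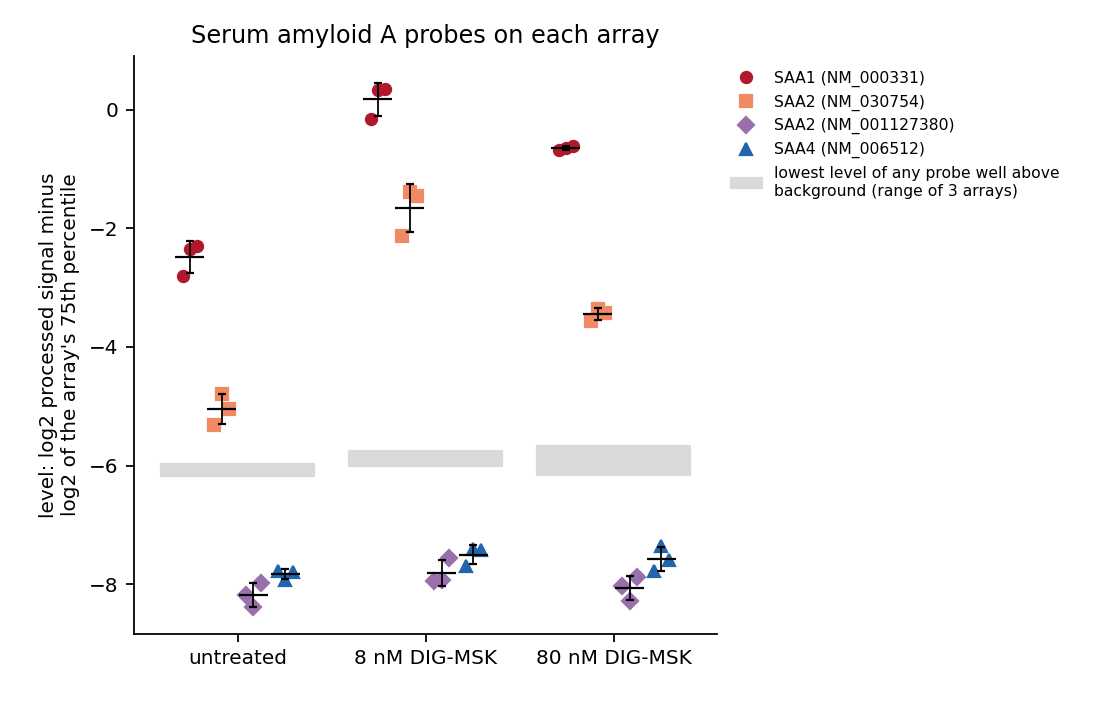
Level of each serum amyloid A probe on each array (y axis, log2 of the processed signal minus log2 of the array's 75th percentile) by group (x axis), with bars for mean ± SD of 3 arrays; grey bands span the lowest level of any probe well above background. SAA1 and the SAA2 probe for NM_030754 were lowest in untreated cells and highest at 8 nM, while SAA4 and the other SAA2 probe lay below the bands on all 9 arrays.

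The comparison of 80 nM with untreated cells did not enter the choice of genes, although it shares the untreated arrays with the 8 nM comparison. SAA1 rose 3.57-fold at 80 nM (log2 change 1.84 ± 0.17 SE, 95% confidence interval of the fold 2.73 to 4.67, limma adjusted p = 4.1e-05). SAA2 rose 3.03-fold (log2 change 1.60 ± 0.21 SE, interval 2.19 to 4.21, limma adjusted p = 0.000266). At this concentration 35.1% of all genes were called, 18.8% higher and 16.3% lower (4104 and 3561 genes), a balance that turned to 2241 higher and 5699 lower with spike-in scaling. SAA1 was rank 431 from the top and SAA2 rank 607, so 1.97% and 2.78% of genes rose more than each of them. The untreated and 8 nM arrays were on slide 1 and the 80 nM arrays on slide 2, scanned separately, so concentration and slide cannot be told apart in this comparison. Both genes kept their call under every alternative run, with the SAA2 change as low as 0.77 log2 units under normexp background correction.

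The level of SAA1 at 80 nM was 0.57-fold its level at 8 nM (log2 difference −0.82 ± 0.17 SE), and that of SAA2 was 3.46-fold lower than at 8 nM (log2 difference −1.79 ± 0.21 SE). The 80 nM change was 69.1% of the 8 nM change for SAA1 and 47.2% for SAA2, on the log2 scale. The 10-fold higher concentration went with a smaller difference from untreated cells in both genes, and here too concentration and slide cannot be told apart, since the 8 nM arrays were all on slide 1 and the 80 nM arrays all on slide 2. This ordering held in all alternatives run, including every array left out in turn.

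Levels of the 2 probes cannot be set against each other, but the SAA2 level minus the SAA1 level can be followed from array to array. It was −2.51, −2.45 and −2.74 in untreated cells, −1.97, −1.72 and −1.80 at 8 nM, and −2.88, −2.71 and −2.81 at 80 nM. The 8 nM arrays were higher than all others, while the untreated and 80 nM arrays overlapped. The mean at 8 nM was 0.74 above untreated and 0.97 above 80 nM, given without a test because the 8 nM arrays chose the genes. At 80 nM it was −0.24 relative to untreated (exact permutation test, two-sided, p = 0.2, where 0.1 is the smallest p that 3 against 3 arrays allow). The larger SAA2 difference at 8 nM did not persist under other background handling, since SAA2 minus SAA1 became −0.25 with normexp correction and 0.0055 in the authors' log2 values. At 80 nM the same settings moved it from −0.24 to −0.81 and −0.71, so the size of that value also depended on background handling.

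**Figure D2:**
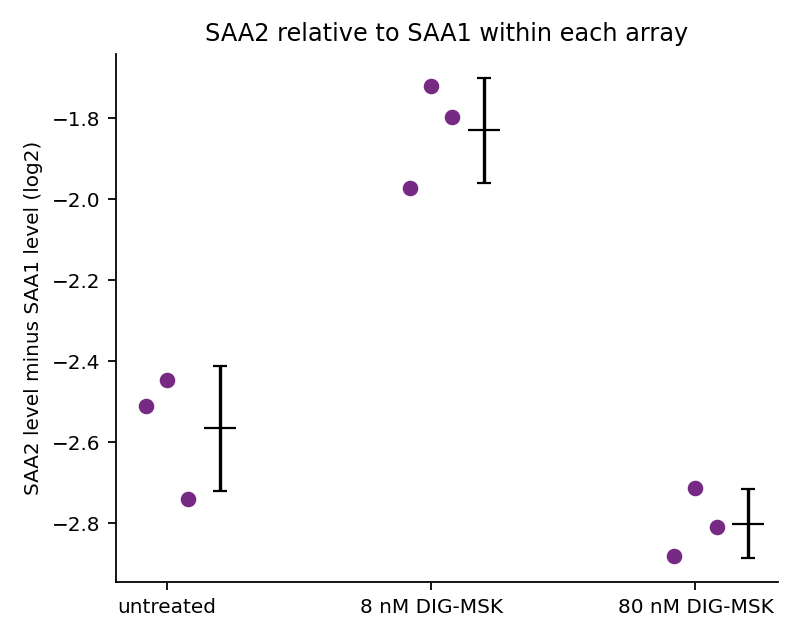
SAA2 level minus SAA1 level (y axis, log2) on each of the 9 arrays by group (x axis), with mean ± SD of 3 arrays beside the points. The 3 arrays at 8 nM lie between −1.97 and −1.72, above the untreated and 80 nM arrays, which overlap.

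Each of these 2 probes was printed on 2 spots per array. Signals of the 2 SAA1 spots differed by at most 1.11-fold and those of the SAA2 spots by at most 1.48-fold. SAA1 and SAA2 levels had a Pearson correlation of 0.967 over the 9 arrays, which share the 3 group means. Probe sequences were not used here, and cross-hybridization between the transcripts of these nearly identical genes was not tested, so the split of signal between SAA1 and SAA2 is uncertain.

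**Figure D3:**
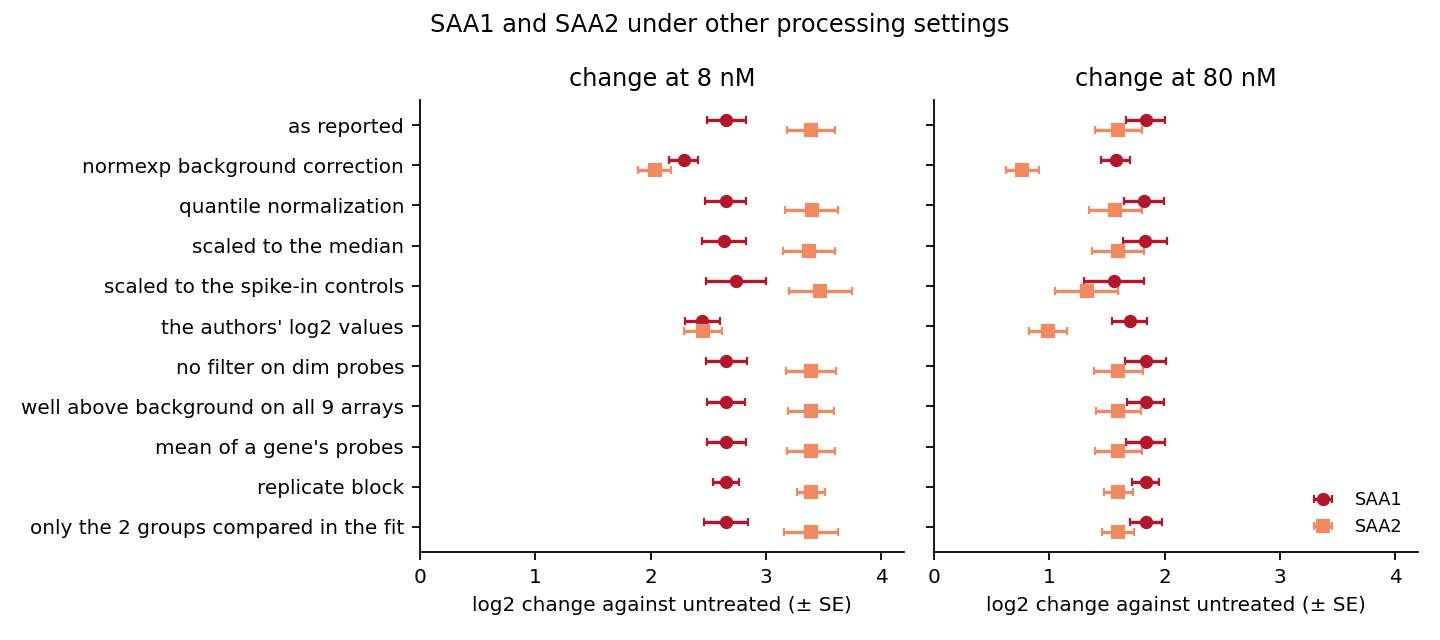
Log2 change of SAA1 and SAA2 against untreated cells (x axis, points with SE) at 8 nM and 80 nM under each processing setting (y axis). SAA1 stays between 2.29 and 2.74 at 8 nM, whereas SAA2 is 3.39 as reported, 2.04 with normexp background correction and 2.45 in the authors' log2 values.

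A second SAA2 probe, for NM_001127380, was above background on 0 of 9 arrays. Its signals ranged from 2.86 to 4.09 in untreated cells, 3.41 to 6.44 at 8 nM and 2.86 to 3.89 at 80 nM. The probes for these RefSeq transcripts of SAA2 thus gave different readings, and no fold was computed for the dim probe. SAA4, read by the probe for NM_006512 on 10 spots per array, was likewise above background on 0 of 9 arrays. SAA4 signals ranged from 4.12 to 4.95 in untreated cells, 5.10 to 7.14 at 8 nM and 4.84 to 6.45 at 80 nM. Of the 85 SAA4 spots kept over all arrays, 1 was well above background. The pseudogene SAA3P (NR_026576) gave signals of 3.37 to 13.0 and was above background on 0 of 9 arrays. No probe on the array carried an accession of the SAA2-SAA4 readthrough transcript.

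Other genes of the acute-phase pathway were taken from 10 lists with 120 genes in all, of which 118 were on the array and 80 were tested. The lists were chosen with earlier results of these data known, so their shares are a description and not independent support. At 8 nM, 12 of the 80 were called (15.0%, against 7.09% of all genes), 10 higher and 2 lower, and the median change was 0.04 against −0.06 over all genes. At 80 nM, 32 were called (40.0%, against 35.1%), 19 higher and 13 lower, with a median of 0.23 against 0.08, and spike-in scaling gave 13 higher and 14 lower. Some calls rest on a group that was not above background on any of its arrays, 3 of the 12 at 8 nM and 8 of the 32 at 80 nM, and for those genes the fold is given as a lower bound. The adjusted p-values below are from limma over all genes tested. Genes below background in a whole group passed the filter only through brighter groups, so their p-values describe them and are not independent tests.

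Of the cytokines that induce serum amyloid A, IL6, IL1B, IL1A and TNF were not tested, and IL6, IL1A and IL1B were above background on 0 of 9 arrays and TNF on 1, at 80 nM. Among 5 tested inducing cytokines, 2 rose and 1 fell at 8 nM, where 7.09% of all genes were called. At 80 nM 2 of the 5 rose, where 35.1% of all genes were called. LIF, an IL-6 family cytokine, rose at 8 nM (log2 change 1.26, adjusted p = 0.000733) and at 80 nM (1.93, adjusted p = 6.33e-06). IL11, of the same family, rose at 80 nM (1.81, adjusted p = 1.65e-05) and had a change of 0.40 at 8 nM (adjusted p = 0.103). Cardiotrophin CTF1 rose at 8 nM (0.60, adjusted p = 0.00107). Oncostatin M (OSM) was at least 1.69-fold lower at 8 nM (adjusted p = 0.0436), where it was not above background.

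Of 5 tested cytokine receptors, 1 rose at 8 nM (20.0%, against 7.09% of all genes) and 1 fell at 80 nM (20.0%, against 35.1%). IL6R, LIFR and OSMR were not above background on any array, nor was the cytokine gene IL22. IL22RA1, a subunit of the IL-22 receptor, was at least 4.19-fold higher at 8 nM than in untreated cells, where it was not above background (adjusted p = 0.000831). It passed the filter on dim probes only through the 8 nM group, where it was high. At 80 nM it was above background on 1 of 3 arrays. The IL-1 receptor accessory chain IL1RAP fell at 80 nM (log2 change −0.88, adjusted p = 0.00104).

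Of 19 tested transducers and transcription factors, 1 was called higher and 1 lower at 8 nM (10.5%, against 7.09% of all genes), and neither passed with adjusted p. These were STAT3 (log2 change 0.59, adjusted p = 0.0569) and CEBPD (−0.74, adjusted p = 0.122), and each lost its call under 6 of 20 alternatives. CEBPB, the C/EBP factor known for its role in the acute-phase response, had changes of −0.01 at 8 nM and 0.09 at 80 nM, with adjusted p of 0.946 and 0.406. Of the genes for NF-kB subunits, NFKB1 (0.03 and 0.22) and RELA (0.26 and 0.28) were not called at either concentration, and NFKB2 was not tested. SP1, whose C+G-rich sites mithramycins occupy, had changes of 0.04 and −0.16.

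At 80 nM, 3 transducers or factors rose and 3 fell (31.6%, against 35.1% of all genes). CEBPD fell (log2 change −1.14, adjusted p = 0.00877), and the glucocorticoid receptor gene NR3C1 was at least 1.80-fold lower (adjusted p = 0.000807). JAK2, a kinase of cytokine receptors, rose (0.77, adjusted p = 3.24e-05). STAT3 at 80 nM read −0.45 on the probe used and 0.52 on its other probe, so its direction there was not settled.

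Of 9 tested inhibitors of these pathways 0 were called at 8 nM (against 7.09% of all genes), where 4 had an unadjusted limma p under 0.05. At 80 nM 2 were called (22.2%, against 35.1%). SOCS1, a feedback inhibitor of JAK kinases, rose at 80 nM (log2 change 1.30, adjusted p = 0.000106), and CISH, another member of that family, fell (−1.90, adjusted p = 7.02e-07). Among 8 tested further targets of NF-kB and STAT3, 1 rose at 8 nM (12.5%, against 7.09%) and 3 rose and 2 fell at 80 nM (62.5%, against 35.1%). BIRC3, an inhibitor of apoptosis, was at least 1.98-fold higher at 8 nM and at least 4.69-fold higher at 80 nM (adjusted p = 0.000319 and 3.4e-07), with no untreated array above background. The adaptor MYD88 was at least 2.15-fold higher (adjusted p = 0.0126) and the adhesion molecule ICAM1 at least 3.84-fold lower (adjusted p = 9.71e-07) at 80 nM. The kinase gene PIM1 fell at 80 nM (−1.30, adjusted p = 6.15e-05). CXCL8, CCL2 and CCL20, chemokine targets of NF-kB, were above background on 0 of 9 arrays.

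Of 16 tested acute-phase proteins other than serum amyloid A, 2 rose at 8 nM (12.5%, against 7.09% of all genes). At 80 nM 4 rose and 3 fell (43.75%, against 35.1%). Hemopexin (HPX), a heme-binding plasma protein, rose by 1.17 log2 units at 8 nM (adjusted p = 0.000535) and by 2.20 at 80 nM (adjusted p = 1.39e-06), with 1 of 3 untreated arrays above background. Complement C3, the other gene called at 8 nM and named after its value was seen, had a change of 0.79 (adjusted p = 0.00202) there and −0.27 at 80 nM. Pentraxin PTX3 rose at 80 nM (2.45, adjusted p = 1.55e-06) and had a change of −0.42 at 8 nM (adjusted p = 0.0628). Fibrinogen chain FGB was at least 2.69-fold lower and ceruloplasmin (CP) at least 1.61-fold lower at 80 nM (adjusted p = 1.4e-05 and 0.00022). CRP was above background on 2 of 9 arrays, both at 80 nM, and was not tested. The highest difference at 8 nM among these 16 was that of HPX. It was below those of SAA1 and SAA2, but these were chosen for a large difference at 8 nM, so that ordering was set by the choice. Of 3 tested negative acute-phase proteins, none was called at 8 nM (against 7.09% of all genes), where 1 had an unadjusted limma p under 0.05. At 80 nM 1 was called (33.3%, against 35.1%). This was APOA1, the main protein of high-density lipoprotein, which rose (0.72, adjusted p = 0.00556).

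Among 9 listed receptors for serum amyloid A, 3 were tested and FPR1, FPR2, TLR2 and TLR4 were above background on 0 of 9 arrays. None of the 3 was called at 8 nM (against 7.09% of all genes), although each had an unadjusted limma p under 0.05. At 80 nM 1 was called (33.3%, against 35.1%), SELENOS, which rose (log2 change 0.84, adjusted p = 2.5e-05). Of 8 tested partners in high-density lipoprotein and lipid transfer, 3 rose at 8 nM (against 7.09% of all genes called). At 80 nM 4 rose and 2 fell (against 35.1% called). The cholesterol exporter gene ABCA1 rose at both concentrations (0.67, adjusted p = 0.00654, and 1.31, adjusted p = 2.46e-05), although its other probe read 0.08 at 8 nM. LCAT, which esterifies cholesterol on the particle, rose by 0.66 (adjusted p = 0.0075) and 0.91 (adjusted p = 0.000195). PLTP, a phospholipid transfer protein named after its value was seen, was the remaining gene called at 8 nM (0.75, adjusted p = 0.000535). At 80 nM APOE rose (0.94, adjusted p = 0.000104) and ABCG1 was at least 2.84-fold lower (adjusted p = 6.65e-05). Of 5 tested proteases that degrade serum amyloid A, none was called at 8 nM (against 7.09% of all genes), where 1 had an unadjusted limma p under 0.05. At 80 nM MMP3 rose (2.98, adjusted p = 9.99e-08) and MMP1 fell (−0.66, adjusted p = 0.0028), or 40.0% of the list against 35.1% of all genes.

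**Figure D4:**
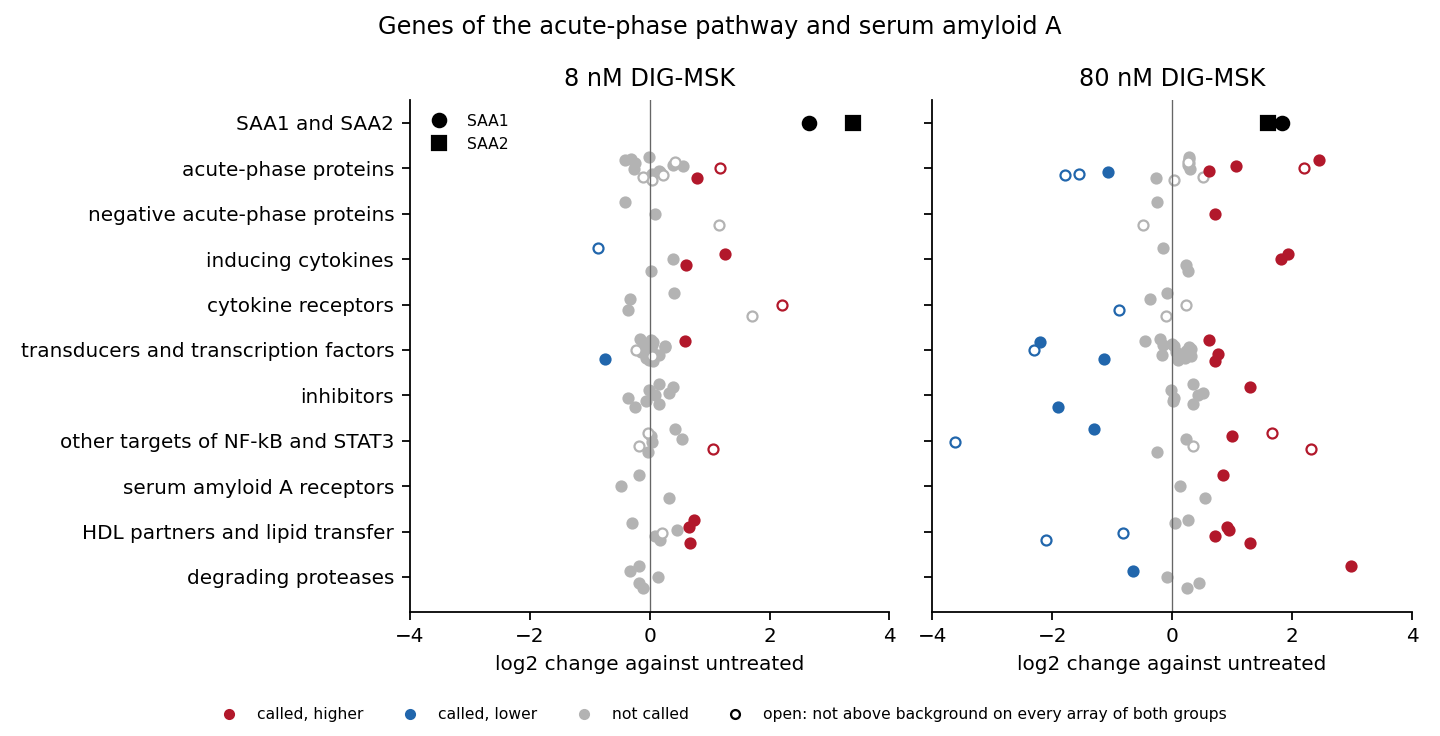
Log2 change against untreated cells (x axis) for the tested genes of each pathway list (y axis) at 8 nM and 80 nM, 1 point per gene, with SAA1 and SAA2 in black and called genes in colour. SAA1 (2.66) and SAA2 (3.39), chosen for their large difference at 8 nM, lie to the right of every list gene there, and several list genes exceed both at 80 nM.

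Several of these calls depended on the processing. Under normexp background correction 4 of the 12 list calls at 8 nM and 21 at 80 nM were counted, and among the genes named here the calls of HPX, C3, OSM, BIRC3, ABCA1, LCAT, CTF1 and STAT3 at 8 nM and of CP, FGB, NR3C1, ABCG1, IL1RAP, MYD88, JAK2 and APOA1 at 80 nM were lost. Scaling to the spike-in controls also ended the calls of JAK2, SELENOS and APOA1 at 80 nM. Leaving out single arrays ended the call of CTF1 at 8 nM (untreated replicate 1 or 2), of ABCA1 at 8 nM (8 nM replicate 3), of STAT3 at 8 nM (untreated replicate 2, 8 nM replicate 1 or 3), of CEBPD at 8 nM (untreated replicate 1 or 3, 8 nM replicate 2) and of MMP1 at 80 nM (untreated replicate 1).

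The genes around the cluster on chromosome 11 were followed in the order SERGEF, TPH1, SAAL1, MRGPRX3, MRGPRX4, then SAA4, SAA2 and SAA1, then HPS5, GTF2H1, LDHA, LDHC and LDHAL6A. TPH1, MRGPRX3 and MRGPRX4 did not pass the filter. Of the 7 neighbours tested, none was called at 8 nM or at 80 nM, against 7.09% and 35.1% of all genes. These are too few genes to set against those shares. At each concentration 3 of the 7 had an unadjusted limma p under 0.05 with changes under 1.5-fold. With adjusted p under 0.05 there were 3 at 80 nM and 0 at 8 nM. Scaling to the spike-in controls called 2 of the 7 lower at 80 nM. Their log2 changes ran from −0.35 to 0.14 at 8 nM and from −0.40 to 0.43 at 80 nM. HPS5, the tested gene next to SAA1, had changes of 0.14 at 8 nM and 0.43 at 80 nM (adjusted p = 0.482 and 0.0197 by limma).

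**Figure D5:**
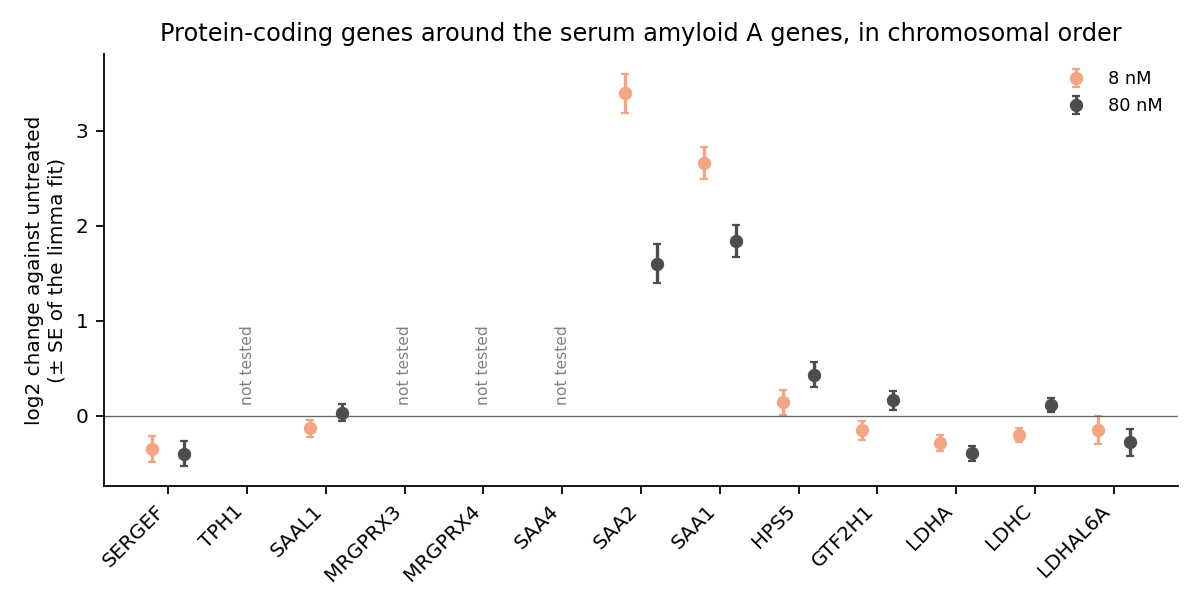
Log2 change against untreated cells (y axis, limma estimate ± SE) for protein-coding genes in chromosomal order (x axis, not to scale). SAA2 and SAA1, chosen for their large difference at 8 nM, are at 3.39 and 2.66 there. The 7 tested neighbours lie between −0.40 and 0.43 at both concentrations.

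The pattern of the mean SAA1 and SAA2 level over the 9 arrays was compared with that of 13988 genes that passed the filter and have a symbol. Pearson correlations exceeded 0.95 for 81 of them, and the highest were those of JCAD (0.995), DNAI3 (0.993), SUSD6 (0.993), BBS4 (0.991) and KLLN (0.990). These values describe likeness only, since the arrays share 3 group means. DNAI3 had log2 changes of 2.25 at 8 nM and 1.42 at 80 nM, and KLLN of 1.08 and 0.60. For JCAD they were 1.08 and 0.64, but its other probe read 0.93 and −0.90.

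Markers of other cell types were read on the linear scale relative to the 75th percentile and summed per array. Of 6 hepatocyte markers, ALB, APOB, TTR and TF did not pass the filter, and the sum over the other 2 was 0.0862 to 0.110 in untreated cells, 0.0785 to 0.0904 at 8 nM and 0.0717 to 0.0829 at 80 nM. Of 6 myeloid markers 4 were tested, and their sum was 0.178 to 0.238, 0.181 to 0.204 and 0.288 to 0.312 in the same order. Epithelial markers (4 of 5 tested, without CDH1) summed to 3.17 to 3.28, 3.41 to 3.64 and 3.27 to 3.60. Of 5 ovarian and Müllerian markers, PAX8, WT1 and MUC16 did not pass the filter, and the sum over the other 2 was 1.08 to 1.19 in untreated cells, 1.25 to 1.61 at 8 nM and 1.64 to 1.73 at 80 nM. The 5 fibroblast and stromal markers were all tested and summed to 179.6 to 208.3, 164.8 to 182.9 and 245.3 to 257.8. Hepatocyte sums were thus not above the untreated range in the treated groups, epithelial sums were above it at 8 nM, ovarian and Müllerian sums in both, and myeloid and stromal sums were above it at 80 nM. Members of a list did not move together. At 80 nM VIM, by far the highest term of the stromal sum, had a log2 change of 0.40. COL1A1 and COL3A1 had larger changes there, 2.31 and 2.08, while DCN had −1.39 and PDGFRB 0.00. In the myeloid list CD68 had 1.25 at 80 nM while PTPRC had −0.20. Of the 2 ovarian and Müllerian terms, FOXL2 had log2 changes of 0.36 at 8 nM and 0.68 at 80 nM, while ESR1 had −0.58 and −0.54. In the epithelial list EPCAM had 0.90 at 8 nM and −0.93 at 80 nM, while KRT8 had −0.05 and 0.30. The part of any of these in the serum amyloid A values was not tested.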

How the data were processed

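Per the file headers, the authors scanned 1-colour arrays and used Feature Extraction 10.7.3.1 to obtain the intensity of each spot, and the deposited processed intensity is background-corrected but not scaled between arrays. The log2 table that the authors deposited has nearly equal quantiles on all arrays and served as an alternative. Flags of each spot were used as deposited. The labels and the paper name different labeling kits.

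Control and outlier spots were left out, log2 signals of a probe's spots were averaged, and log2 of the array's 75th percentile over gene spots (831.7 to 1170) was subtracted. Probes had to be well above background, on more than 0.5 of their spots, on all 3 arrays of at least 1 group (26457 of 42405 probes). The probe with the highest mean stood for its gene. Probes whose accession matched no current symbol were grouped by that accession and counted as a gene, both among the 35010 gene names and among the 21832 genes tested. An array held 62976 spots, 4259 of them controls, and 0 gene spots were saturated. The number of arrays limits the precision. Of 27245 probes with RefSeq accessions, 25715 were named from the GRCh38.p14 gene table, used for names and order only because the design was annotated on another build.

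Limma 3.58.1 (R 4.3.3; lmFit, eBayes) was fitted to all 9 arrays, with Benjamini-Hochberg adjustment over 21832 genes, and was tested on simulated data. For a gene below background on a whole group, the bound sets the bright group's mean against the higher of each dim array's own value and its lowest signal well above background. Calls required at least 1.5-fold or at most 0.67-fold and p under 0.05, the thresholds of the methods, with the p taken unadjusted here. The exact permutation test of SAA2 minus SAA1 used SciPy 1.17.1 and was added after the data were seen. Motifs were searched on both strands.

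Members, pathway lists and markers were chosen with earlier results of these data known. Named genes were the members, up to 4 called genes per list with the largest changes, CEBPB, CEBPD, NFKB1, RELA, STAT3, IL6, IL1B, TNF and SP1, 5 coding genes on each side of the cluster and the 5 genes most like SAA1 and SAA2. One gene that this rule names is not reported here. The labels give replicate numbers but do not say that cultures were paired. Deviations from the group means had correlations of 0.114, 0.101 and 0.163 between same-numbered untreated and 8 nM arrays. Unlike-numbered arrays of these 2 groups had −0.124 to −0.00301. Between 80 nM and the other arrays, correlations of same-numbered arrays lay between −0.124 and 0.0155, and those of unlike-numbered arrays reached 0.125.

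Alternatives were normexp (offset 50) on the median spot signal, quantile normalization, scaling to the median or to 10 spike-in probes, the authors' log2 values, other filters, the mean of a gene's probes, fits with only the groups compared or with the replicate number as a block, adjusted p-values, and the omission of single arrays. A block fit on untreated and 8 nM arrays only, and the settings of SAA2 minus SAA1, were added after seeing the data.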

Additional observations from a re-analysis of the deposited data

How the results depend on the processing

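SAA1 and SAA2 were higher than untreated at both concentrations, and lower at 80 nM than at 8 nM, under all alternatives run. At 80 nM the limma adjusted p of SAA1 ran from 3.59e-06 to 0.000594 and that of SAA2 from 6.25e-05 to 0.00251. Normexp background correction gave log2 changes at 8 nM of 2.29 for SAA1 and 2.04 for SAA2 and an SAA2 difference between 80 and 8 nM of −1.27. The authors' log2 values gave 2.45 for SAA2 at 8 nM and −1.47 between 80 and 8 nM. With spike-in scaling the differences between 80 and 8 nM were −1.18 for SAA1 and −2.15 for SAA2, and the median over all genes at 80 nM went from 0.08 to −0.20. SAA2 minus SAA1 reversed at 8 nM with normexp correction (−0.25, from 0.74) and was 0.0055 in the authors' values, and under the same settings it was −0.81 and −0.71 at 80 nM and −0.56 and −0.72 between 80 and 8 nM. Normexp correction and the authors' values treat the background of dim spots differently from the processed signal, and the cause of each shift was not tested. Genes called at 8 nM numbered 748 with normexp correction and 907 in the authors' values, against 1548, and at 80 nM 4754 with normexp correction against 7665. List genes called at 8 nM were 4 and 5 against 12, and at 80 nM 21 with normexp correction against 32. Spike-in scaling called 2 of 7 neighbours, both lower at 80 nM.

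When single arrays were left out, SAA1 ran from 2.50 to 2.82 at 8 nM, 1.68 to 1.93 at 80 nM and −0.98 to −0.74 between them, and SAA2 from 3.26 to 3.63, 1.47 to 1.73 and −2.03 to −1.66. With the replicate number as a block, 1541 genes were called at 8 nM (1651 with untreated and 8 nM arrays only) and 12 list genes (13). The block moved no count by over 1.5 times, and SAA1 (adjusted p = 6.56e-05, limma) and SAA2 (0.000149) kept their calls at 80 nM. No change is given for SAA4 and the dim SAA2 probe because they were below background on every array.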
